A study of Mus musculus with 8 samples.

Results

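The axon and vessel guidance families are ligands and receptors by which growing nerves and blood vessels find their paths. They were taken here by gene symbol: semaphorins of classes 3 to 7, plexins, neuropilins, ephrins, Eph receptors, netrins, Unc5 receptors, Slits and Robos. Of the 14683 genes with a probe set of 1 symbol, 59 fitted, each with 1 probe set. They comprised 18 semaphorins, 8 plexins, 1 neuropilin, 4 ephrin-A and 3 ephrin-B ligands, 9 EphA and 3 EphB receptors, 2 Slits, 4 Robos, 3 netrins and 4 Unc5 receptors. RefSeq lists 68 mouse symbols that fit the same rule, and the other 9 were not analysed here.

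The 8 samples were total RNA from mouse haematopoietic precursor cells on Affymetrix arrays, 2 samples in each of 4 groups: with doxycycline for 12 h, without it for 12 h, with it for 24 h and without it for 24 h. All groups used iSOX7, a line derived from Ainv18 embryonic stem cells, where the transcription factor SOX7 is switched on by doxycycline. All cells had been isolated as FLK1+ from embryoid bodies, kept in a blast medium with VEGF and IL6, and sorted as CD41+ and CD34- before the 12 h or 24 h of culture. Line, medium and sort were thus shared by the controls. A line without the transgene given doxycycline was not analysed here. No source used here says that replicates were separate cultures, so p-values cover only how far these samples scatter, and that scatter may be technical.

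Semaphorins signal through plexins, with neuropilins as co-receptors for the secreted class 3 members. Ephrins are bound to the membrane and signal in both directions on contact with Eph receptors. Slits bind Robos, and netrins bind Unc5 receptors among others. In the embryo, ephrin-B2 marks arterial and EphB4 venous endothelium, and plexin D1, neuropilin 1, Robo4 and Unc5b act in vessel patterning, while Sema4d and Sema7a are also known on blood cells.

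Sox7 was at 10.96 and 10.82 with doxycycline against 7.17 and 6.82 without it at 12 h, and at 10.65 and 10.57 against 6.96 and 6.84 at 24 h, on the log2 scale of all values below. The difference was 3.90 ± 0.16 at 12 h and 3.71 ± 0.16 at 24 h, and transcripts of the transgene and of the native gene cannot be told apart here. Itga2b, which encodes CD41, read 9.27 to 10.89 over the 8 arrays and Cd34 read 9.18 to 10.78. The sort as CD41+ and CD34- came before the culture, whereas these values are RNA after it. With no background level known, they are not set against the sort. One array, replicate 2 without doxycycline at 24 h, stood apart: its upper quartile was 8.19, against 8.38 to 8.57 on the other 7, and the main differences at 24 h are also given without it. Replicate numbers were shared by the groups and the arrays deviated together by number (r from 0.298 to 0.428 between groups over 16348 probe sets). Counts with the number as a block in the fit are therefore given too. Each difference is with minus without doxycycline ± standard error from limma, and a gene passed at a Benjamini-Hochberg adjusted p under 0.05 over all 16348 probe sets.

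With doxycycline Sema7a, Efnb2 and Sema6a rose at 12 h, Sema7a, Efnb2 and Efna1 rose at 24 h, and Sema4d fell at 24 h. Over both times, 4 arrays against 4, Ephb4, Plxnd1 and Ntn3 also rose beside Sema7a, Efnb2 and Sema6a, and Plxna4 and Sema4b fell with Sema4d. At 12 h 3 of 59 genes passed (5.08%, 3 higher and 0 lower), against 0.924% of all probe sets, of which 0.593% were higher and 0.33% lower. At 24 h 4 of 59 passed (6.78%, 3 higher and 1 lower), against 1.44% of all probe sets, 0.887% higher and 0.551% lower. Over both times 9 of 59 passed (15.3%, 6 higher and 3 lower), against 4.42% of all probe sets, 2.61% higher and 1.81% lower. With the replicate block 6 of 59 passed at 12 h, against 2.86% of all probe sets in that fit, 11 of 59 at 24 h, against 4.14%, and 14 of 59 over both times, against 7.53%. The median difference of the 59 genes was 0.08 at 12 h and 0.06 at 24 h, against -0.01 and -0.01 over all probe sets.

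Several of these calls were lost in fits with 1 array left out. These fits leave a lone sample in 1 group and fewer degrees of freedom, so a lost call need not rest on that array. For Efna1 at 24 h the difference was 1.705 without replicate 1 and 1.685 without replicate 2 with doxycycline. The groups of the genes that passed did not overlap at either time, so their signs had to hold in each such fit. Over both times Sema7a, Efnb2, Sema6a, Ephb4, Plxna4 and Sema4d passed in 8 of 8 such fits, Plxnd1 in 3 and Ntn3 and Sema4b in 1 each. At 12 h Sema7a passed in 7 of 8 (adjusted p = 0.0699 without replicate 2 lacking doxycycline at 12 h), while Efnb2 and Sema6a passed in 2 of 8 each. Their calls at 12 h held only in the fits without either array lacking doxycycline at 24 h, and the other 6 gave adjusted p-values of 0.0524 to 0.16 for Efnb2 and of 0.0783 to 0.255 for Sema6a. At 24 h Sema7a passed in 8 of 8, and Efnb2 and Efna1 in 6, being lost without replicate 1 (adjusted p = 0.0984 and 0.112) or replicate 2 (0.0542 and 0.0999) with doxycycline at 24 h. Sema4d passed at 24 h in 3 of 8, with adjusted p-values of 0.0521 to 0.191 in the others, which left out an array with doxycycline or replicate 2 lacking it at 24 h. With only the 2 groups of a time in the fit, Sema7a, Efnb2 and Sema6a at 12 h (adjusted p = 0.0839, 0.0839 and 0.104) and Sema4d at 24 h (0.084) no longer passed, and with array weights Efna1 and Sema4d at 24 h did not (0.0833 and 0.118). Without the array that stood apart the 24 h difference was 3.20 for Sema7a, 1.965 for Efnb2, 1.52 for Efna1 and -0.975 for Sema4d.

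**Figure D1:**
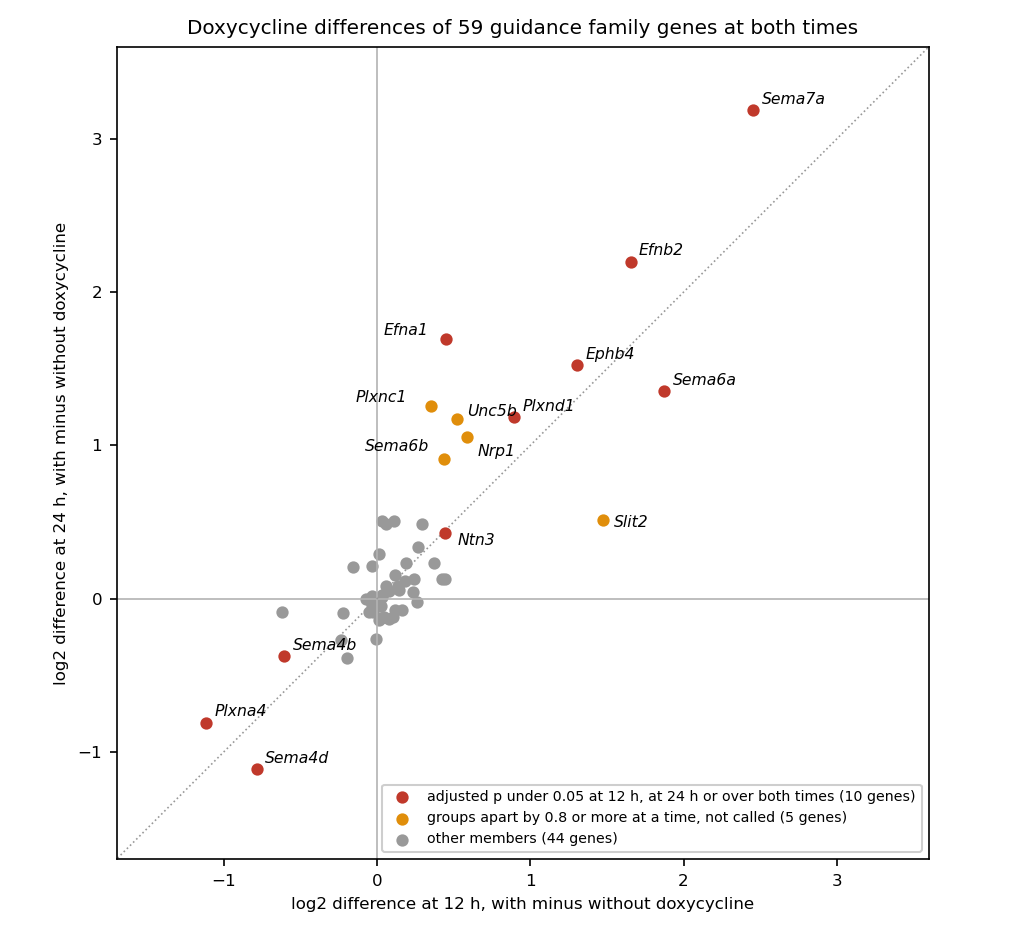
Log2 difference with minus without doxycycline at 12 h (horizontal) and at 24 h (vertical), 1 point for each of 59 genes, with the dotted line marking equal differences. Sema7a lies farthest out at 2.46 and 3.19, most of the 44 grey genes lie near 0, and Efna1 and Slit2 lie on opposite sides of the line.

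The upstream sequences of 4 genes that passed are shown because the series names SOX7 and ETS factors as regulators, and these genes moved with SOX7 induction. Each is the 250 bases before the first start listed by RefSeq, build GRCm38.p6, 5′ to 3′ on the gene's own strand. Capitals mark AACAAT or ATTGTT, the core of SOX sites on either strand, and GGAA or TTCC, the core of ETS sites on either strand.
Sema7a, chr9:57939862-57940111, plus strand: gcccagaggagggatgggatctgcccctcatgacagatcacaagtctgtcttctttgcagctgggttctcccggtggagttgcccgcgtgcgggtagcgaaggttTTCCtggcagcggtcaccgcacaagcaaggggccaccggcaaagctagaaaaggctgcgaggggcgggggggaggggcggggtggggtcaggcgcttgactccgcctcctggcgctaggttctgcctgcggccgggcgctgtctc
Efnb2, chr8:8661243-8661492, minus strand: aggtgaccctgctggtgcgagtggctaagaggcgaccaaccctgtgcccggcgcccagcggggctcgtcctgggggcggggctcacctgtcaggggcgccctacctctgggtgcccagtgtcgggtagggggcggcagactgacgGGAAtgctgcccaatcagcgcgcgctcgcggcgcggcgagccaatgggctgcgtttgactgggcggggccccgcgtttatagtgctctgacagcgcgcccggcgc
Ephb4, chr5:137349859-137350108, plus strand: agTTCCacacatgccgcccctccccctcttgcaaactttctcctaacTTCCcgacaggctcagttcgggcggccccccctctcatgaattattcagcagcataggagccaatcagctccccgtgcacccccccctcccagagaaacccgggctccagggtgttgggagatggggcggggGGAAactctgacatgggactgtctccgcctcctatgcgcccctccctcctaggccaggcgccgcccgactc
Sema4d, chr13:51748811-51749060, minus strand, the first of 3 starts listed: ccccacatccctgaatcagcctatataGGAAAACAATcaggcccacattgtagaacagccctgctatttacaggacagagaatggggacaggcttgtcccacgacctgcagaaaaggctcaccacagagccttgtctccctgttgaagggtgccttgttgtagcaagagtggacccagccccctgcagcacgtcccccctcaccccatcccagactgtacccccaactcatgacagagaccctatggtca
The SOX core was absent from the windows of Sema7a, Efnb2 and Ephb4 and present once in this window of Sema4d, directly next to a GGAA. The other 2 windows of Sema4d held 0 SOX cores and 4 ETS cores each. Over the 12 windows of the genes that passed, 1 (8.33%) held the SOX core. The ETS core occurred once for Sema7a, once for Efnb2, 3 times for Ephb4 and once for Sema4d. Among all 32817 windows of this length, 9.42% held AACAAT or ATTGTT and 93.4% held GGAA or TTCC. Among the 64 windows of the 50 guidance genes listed there, 2 windows (3.12%) held the SOX core and 59 (92.2%) the short ETS core. The longer CCGGAA or TTCCGG, which contains the short core, was in 5 of those 64 windows (7.81%) and in 12.0% of all windows. Of the 10 genes that passed in some comparison, 8 had a window in the table, and Sema6a and Plxna4 had none. These matches describe letters only, and a window without a match says nothing of binding elsewhere.

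**Figure D2:**
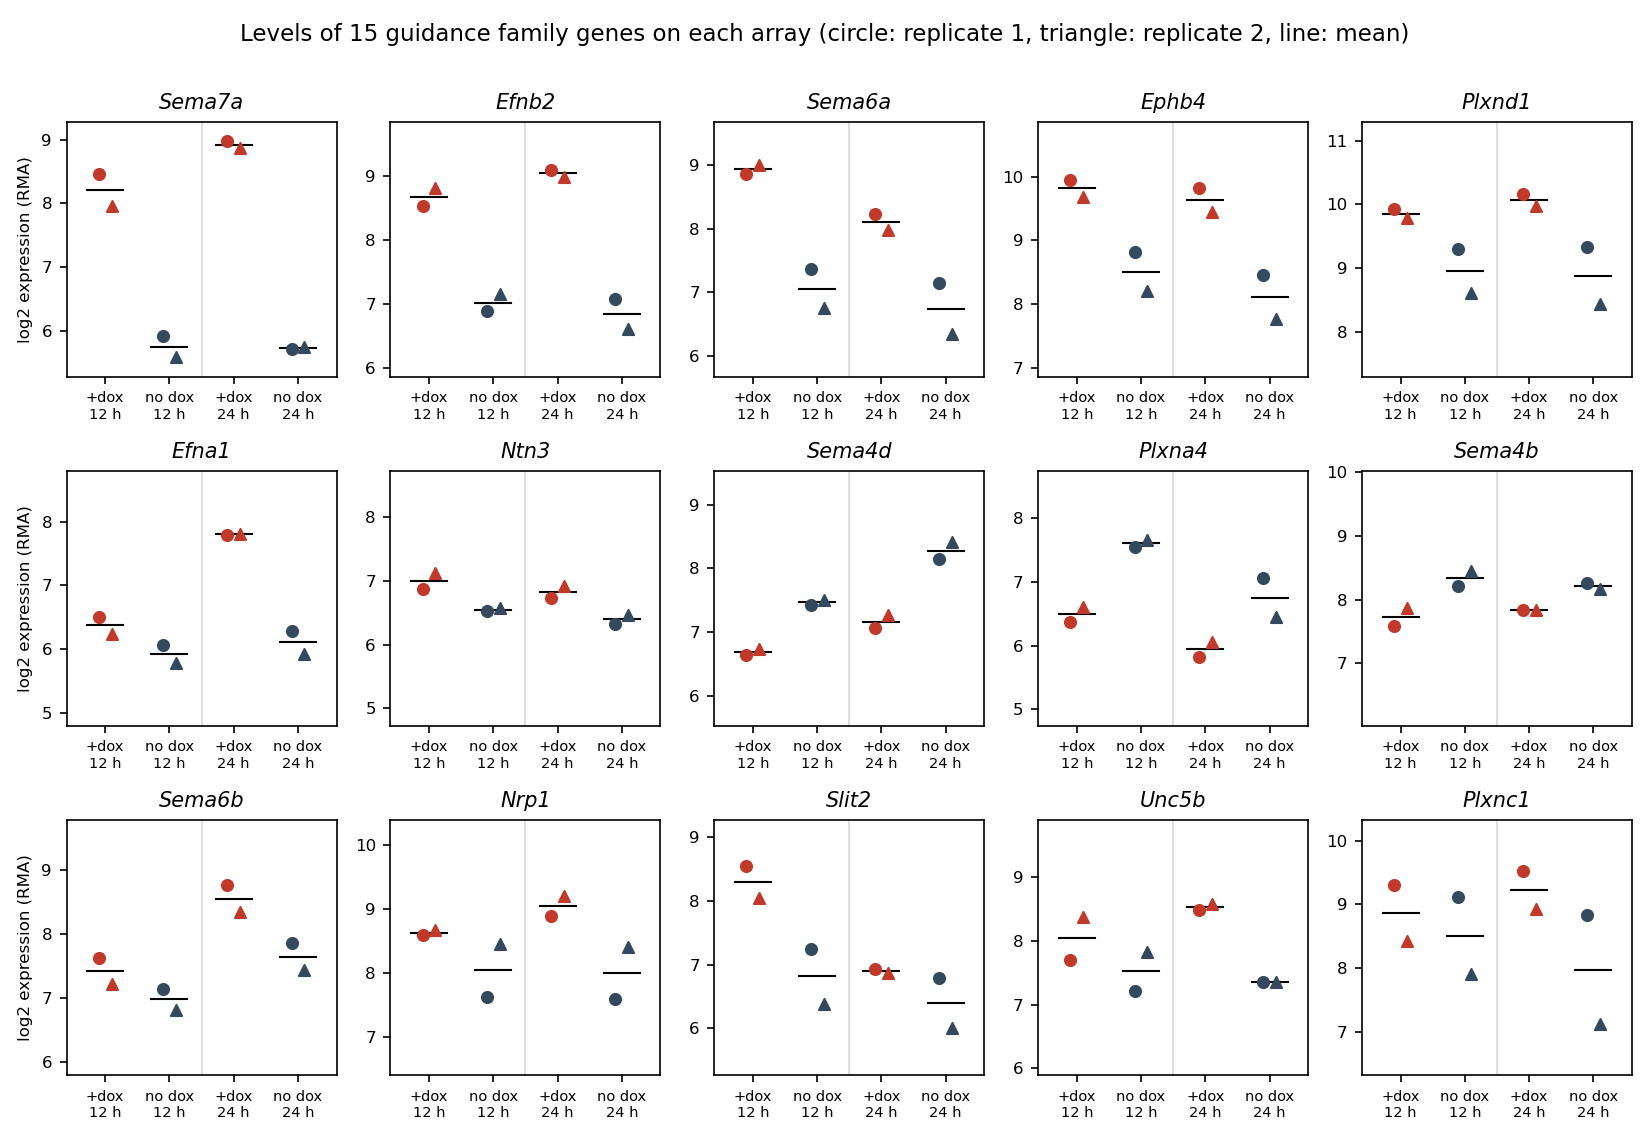
Log2 expression of 15 genes on each of the 8 arrays, with doxycycline in red and without it in dark blue at 12 h and 24 h, circles for replicate 1, triangles for replicate 2 and a line for the mean of 2. Each panel spans 4 log2 units, so that Sema7a shows the widest gap between groups and Ntn3 and Sema4b show narrow ones.

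Sema7a encodes a semaphorin anchored to the membrane by a lipid, which binds plexin C1 and integrin β1. It had the largest rise among the 59 genes at both times. It read 8.46 and 7.96 with doxycycline against 5.92 and 5.59 without it at 12 h, and 8.97 and 8.87 against 5.72 and 5.74 at 24 h. All 4 arrays with doxycycline lay more than 2 log2 units above all 4 without it. At 12 h it rose by 2.46 ± 0.20, or 5.48-fold (adjusted p = 0.00664), and the rise of 3.19 ± 0.20 at 24 h was 9.13-fold (adjusted p = 0.00201). Without the array that stood apart the 24 h difference was 3.20 (adjusted p = 0.0285).

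Plxnc1, the plexin that binds Sema7a, read 9.30 and 8.42 with doxycycline against 9.11 and 7.91 without it at 12 h, so that the groups overlapped. At 24 h it read 9.53 and 8.93 against 8.83 and 7.12, and the groups were apart. The wide gap between the samples without doxycycline left the 24 h difference at 1.26 ± 0.62 (adjusted p = 0.546), and it was 0.40 (adjusted p = 0.769) without the array that stood apart. With the replicate block that difference passed (adjusted p = 0.0422). Itgb1, the other receptor, differed by 0.13 ± 0.10 over both times (adjusted p = 0.678).

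Sema6a encodes a transmembrane semaphorin that binds plexins A2 and A4. It read 8.86 and 9.0 with doxycycline against 7.36 and 6.75 without it at 12 h, and 8.22 and 7.98 against 7.14 and 6.35 at 24 h. The samples with doxycycline were the higher at each time. At 12 h it rose by 1.88 ± 0.30, a 3.67-fold change (adjusted p = 0.0395). The 24 h difference of 1.36 ± 0.30 did not pass (adjusted p = 0.0869) and was 0.96 (adjusted p = 0.196) without the array that stood apart, while with the replicate block it passed (adjusted p = 0.0225). Over both times Sema6a rose by 1.61 ± 0.22 (adjusted p = 0.00513).

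Plxna4, a receptor for Sema6a and, with neuropilin 1, for Sema3a, ran the other way. It read 6.37 and 6.61 with doxycycline against 7.55 and 7.66 without it at 12 h, and 5.82 and 6.06 against 7.06 and 6.44 at 24 h. The samples with doxycycline were the lower at each time and fell by 0.96 ± 0.16 over both times (1.95-fold, adjusted p = 0.012). The separate differences of -1.11 ± 0.22 and -0.81 ± 0.22 did not pass (adjusted p = 0.085 and 0.168). Without the array that stood apart that at 12 h did pass (adjusted p = 0.0391) and that at 24 h was -1.12 (adjusted p = 0.0615). Plxna2, the other plexin of Sema6a, differed by 0.15 ± 0.11 over both times (adjusted p = 0.65).

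The other class 6 semaphorins did not pass. Sema6b read 7.62 and 7.21 with doxycycline against 7.14 and 6.81 without it at 12 h, and 8.77 and 8.34 against 7.86 and 7.43 at 24 h. The groups were apart at both times. The differences were 0.44 ± 0.24 and 0.91 ± 0.24 (adjusted p = 0.733 and 0.155). With the replicate block that at 24 h passed (adjusted p = 0.0101), as did the one of 0.68 over both times (adjusted p = 0.0119). That at 24 h was 0.69 (adjusted p = 0.306) without the array that stood apart. Sema6c and Sema6d differed by 0.18 ± 0.12 and 0.31 ± 0.14 over both times (adjusted p = 0.546 and 0.331).

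Sema4d, known as CD100 on leukocytes, signals through plexin B1 and CD72. It read 6.64 and 6.73 with doxycycline against 7.43 and 7.51 without it at 12 h, and 7.06 and 7.27 against 8.14 and 8.42 at 24 h. No array with doxycycline reached the lowest one without it. The 12 h difference was -0.79 ± 0.16 (adjusted p = 0.0839, and 0.0237 with the replicate block), and at 24 h Sema4d fell by 1.11 ± 0.16 (2.17-fold, adjusted p = 0.0224). Without the array that stood apart the 24 h value was -0.97 (adjusted p = 0.056). Over both times the fall was 0.95 ± 0.12 (adjusted p = 0.00343).

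Sema4b, another transmembrane member of class 4, read 7.59 and 7.87 with doxycycline against 8.22 and 8.45 without it at 12 h, and 7.83 and 7.84 against 8.26 and 8.16 at 24 h. Its fall over both times was small at 0.49 ± 0.11 (1.40-fold, adjusted p = 0.0436). Of the 5 class 4 semaphorins Sema4b and Sema4d fell over both times and 0 rose, against 1.81% and 2.61% of all probe sets. Sema4a, Sema4f and Sema4g differed by -0.03 ± 0.11, -0.065 ± 0.11 and 0.275 ± 0.14 (adjusted p = 0.96, 0.893 and 0.429). Plxnb1 and Plxnb2, receptors of this class, differed by 0.14 ± 0.16 and 0.07 ± 0.10 over both times (adjusted p = 0.804 and 0.859). The 95% intervals of the 24 h difference ran from -0.51 to 0.59 for Plxnb1 and from -0.28 to 0.44 for Plxnb2.

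Of the 6 class 3 semaphorins, which are secreted, 0 passed in either direction, and their differences ran from -0.23 to 0.29 at 12 h and from -0.10 to 0.49 at 24 h. Sema3f had the upper value at each time. Nrp1, the co-receptor that these ligands share with VEGF, read 8.59 and 8.67 with doxycycline against 7.62 and 8.46 without it at 12 h, and 8.90 and 9.21 against 7.59 and 8.41 at 24 h. The groups did not overlap, but the 2 samples without doxycycline differed by about as much as the groups did. The differences were 0.59 ± 0.34 and 1.06 ± 0.34 (adjusted p = 0.764 and 0.248), and with the replicate block that at 24 h and the one of 0.82 over both times passed (adjusted p = 0.0423 and 0.0241). That at 24 h was 1.47 (adjusted p = 0.144) without the array that stood apart.

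Plxnd1, the endothelial plexin that binds Sema3e, read 9.92 and 9.78 with doxycycline against 9.30 and 8.61 without it at 12 h, and 10.16 and 9.97 against 9.33 and 8.43 at 24 h. The samples with doxycycline were above at both times. Over both times Plxnd1 rose by 1.04 ± 0.22 (2.06-fold, adjusted p = 0.0372), while 0.90 ± 0.32 and 1.18 ± 0.32 at the separate times did not pass (adjusted p = 0.425 and 0.168). That at 24 h passed with the replicate block (adjusted p = 0.0276) and was 0.73 (adjusted p = 0.306) without the array that stood apart. The value over both times was then 0.83 (adjusted p = 0.0486). Its ligand Sema3e differed by -0.16 ± 0.18 over both times (adjusted p = 0.794).

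Among the ephrins, Efnb2 had the largest rise. This transmembrane ligand of EphB4 read 8.54 and 8.81 with doxycycline against 6.88 and 7.16 without it at 12 h, and 9.10 and 8.99 against 7.08 and 6.61 at 24 h. The 4 arrays with doxycycline lay above the other 4 by more than 1 log2 unit. Efnb2 rose 3.15-fold at 12 h, by 1.66 ± 0.20 (adjusted p = 0.0208), and 4.59-fold at 24 h, by 2.20 ± 0.20 (adjusted p = 0.00708). Without the array that stood apart the rise at 24 h was 1.97 (adjusted p = 0.0345). The related Efnb1 and Efnb3 differed by 0.30 ± 0.12 and 0.09 ± 0.16 over both times (adjusted p = 0.271 and 0.892).

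Ephb4, the receptor of ephrin-B2, read 9.95 and 9.68 with doxycycline against 8.82 and 8.20 without it at 12 h, and 9.82 and 9.45 against 8.45 and 7.77 at 24 h. The ligand and its receptor were thus both higher with doxycycline at each time. The separate differences of 1.30 ± 0.29 and 1.53 ± 0.29 did not pass (adjusted p = 0.121 and 0.0595), and both passed with the replicate block (adjusted p = 0.00894 and 0.00413). That at 24 h was 1.19 (adjusted p = 0.166) without the array that stood apart. Over both times Ephb4 rose by 1.42 ± 0.20 (2.67-fold, adjusted p = 0.00642). The other EphB receptors, Ephb1 and Ephb3, differed by -0.01 ± 0.11 and 0.28 ± 0.19 (adjusted p = 0.99 and 0.602).

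Efna1, a lipid-anchored ephrin that binds EphA2, had its larger difference at 24 h, although the direct test between the 2 times did not pass. It read 6.51 and 6.23 with doxycycline against 6.06 and 5.78 without it at 12 h, and 7.79 and 7.81 against 6.28 and 5.93 at 24 h. The 12 h difference was 0.45 ± 0.18 (adjusted p = 0.518), and the rise at 24 h was 1.70 ± 0.18 (3.24-fold, adjusted p = 0.0121). It was 1.52 (adjusted p = 0.0465) without the array that stood apart. Over both times the difference of 1.07 ± 0.25 missed the threshold (adjusted p = 0.0502) and passed with the replicate block (adjusted p = 0.0401). Epha2 differed by -0.03 ± 0.22 at 12 h and -0.04 ± 0.22 at 24 h (adjusted p = 0.995 and 0.996). Of the 9 EphA receptors 0 passed, with differences from -0.62 to 0.18 at 12 h and from -0.27 to 0.15 at 24 h.

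Slit2, a secreted ligand of the Robos, had its larger difference at 12 h, although the direct test between the 2 times did not pass. It read 8.54 and 8.04 with doxycycline against 7.24 and 6.39 without it at 12 h, and 6.94 and 6.87 against 6.79 and 6.0 at 24 h. The samples with doxycycline were the higher at each time, by a small margin at 24 h. The differences of 1.48 ± 0.35 and 0.51 ± 0.35 did not pass (adjusted p = 0.144 and 0.738), and that at 24 h was 0.12 (adjusted p = 0.902) without the array that stood apart. With the replicate block that at 12 h did (adjusted p = 0.0153), and so did the one of 0.99 over both times (adjusted p = 0.0373).

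The 4 Robos had 0 members that passed. Robo4, a Robo of endothelium, read 6.37 and 6.02 with doxycycline against 5.95 and 5.70 without it at 12 h, and 6.23 and 5.99 against 5.91 and 5.84 at 24 h. It differed by 0.30 ± 0.12 over both times (adjusted p = 0.257). Robo1 differed by 0.21 ± 0.09 (adjusted p = 0.298), and both were apart between the groups at each time. Robo2 and Robo3, known from neurons, differed by 0.01 ± 0.12 and -0.04 ± 0.10 (adjusted p = 0.99 and 0.942).

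Ntn3, a secreted netrin, read 6.87 and 7.12 with doxycycline against 6.52 and 6.58 without it at 12 h, and 6.73 and 6.92 against 6.33 and 6.46 at 24 h. The groups did not overlap, and over both times Ntn3 rose by 0.44 ± 0.10 (1.35-fold, adjusted p = 0.0451). That call was lost with a repeated quantile normalization (0.39, adjusted p = 0.0651), with array median centring (0.40, adjusted p = 0.0783) and with an intensity trend in eBayes (adjusted p = 0.0506). Ntn1 and Ntn4 differed by 0.07 ± 0.10 and 0.12 ± 0.15 (adjusted p = 0.865 and 0.819).

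Unc5b, a netrin receptor of arterial and sprouting endothelium, read 7.70 and 8.38 with doxycycline against 7.21 and 7.83 without it at 12 h, so that the groups overlapped. At 24 h it read 8.49 and 8.58 against 7.36 and 7.36, and the groups were clearly apart. The differences were 0.52 ± 0.27 and 1.18 ± 0.27 (adjusted p = 0.696 and 0.0985), and with the replicate block that at 24 h and the one of 0.85 over both times passed (adjusted p = 0.0249 and 0.0303). That at 24 h was 1.18 (adjusted p = 0.216) without the array that stood apart. Unc5a, Unc5c and Unc5d differed by -0.05 ± 0.10, 0.27 ± 0.19 and -0.01 ± 0.11 over both times (adjusted p = 0.911, 0.622 and 0.987).

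**Figure D3:**
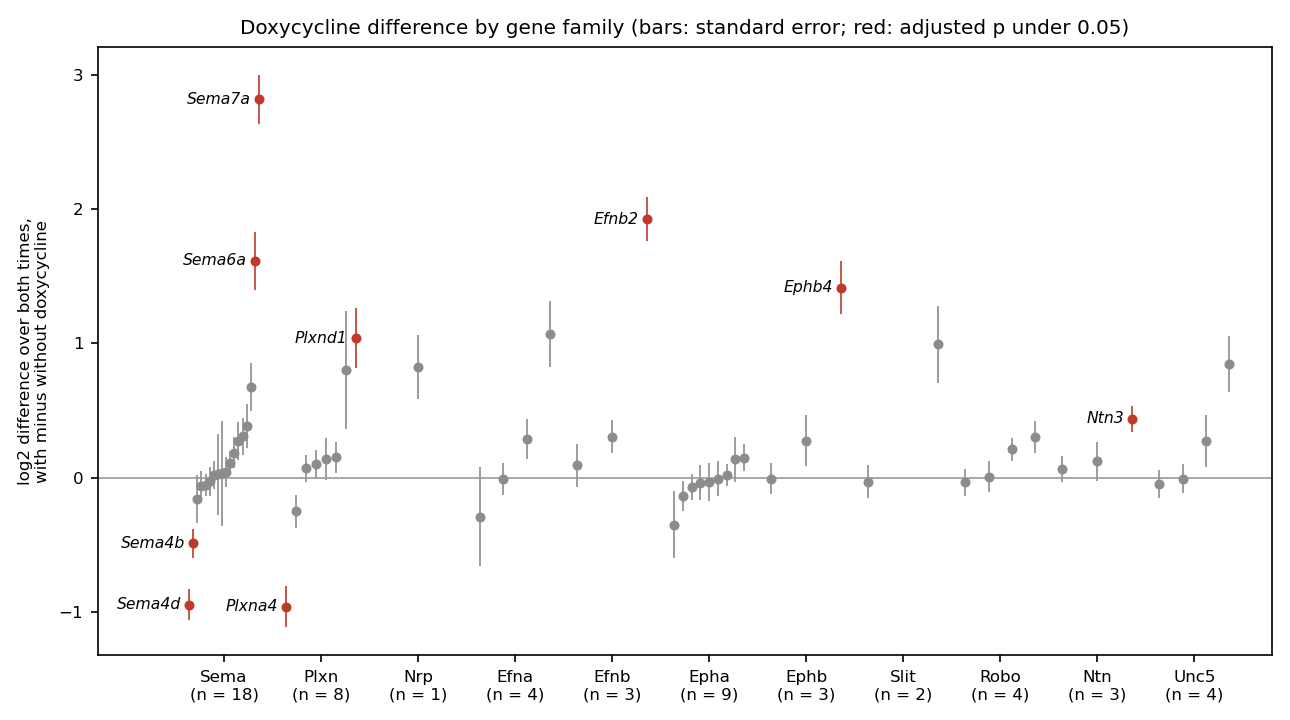
Log2 difference over both times, with minus without doxycycline, for the 59 genes grouped by family, with standard errors, and in red the 9 with an adjusted p under 0.05. Outside the semaphorins and plexins each family has at most 1 red gene, and the neuropilin, ephrin-A, EphA, Slit, Robo and Unc5 genes have 0.

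The 44 genes that neither passed nor had groups apart by 0.8 or more differed by -0.62 to 0.45 at 12 h and by -0.39 to 0.51 at 24 h. Over the 8 arrays, the span from the lowest to the highest value was under 0.5 in 20 of the 59 genes and over 2 in 7. It was smallest in Epha5 at 0.12 and largest in Sema7a at 3.38. Groups that did not overlap were counted as well. At 12 h 19 of 59 were higher with doxycycline and 4 lower (32.2% and 6.78%), against 21.7% and 22.3% of all probe sets. At 24 h the counts were 21 higher and 6 lower (35.6% and 10.2%), against 15.2% and 16.2% of all probe sets. Groups apart by at least 0.8 at a time were seen in 13 of 59 genes, against 6.24% of all probe sets. At both times alike 13 genes were higher and 3 lower without overlap, against 8.28% and 6.61% of all probe sets.

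Markers of endothelium moved with these genes. Of 12 endothelial markers 7 rose over both times and 0 fell, against 2.61% and 1.81% of all probe sets. Among the 7, Cdh5 rose by 1.78, Ptprb by 2.51 and Kdr by 1.38 (adjusted p = 0.00854, 0.00262 and 0.0377). The mean of the list was 9.61 and 9.19 with doxycycline against 8.70 and 7.78 without it at 12 h, and 9.68 and 9.27 against 8.47 and 7.29 at 24 h. Its part in the differences of Efnb2, Ephb4, Plxnd1 and the others was not tested, and in such bulk samples fewer cells of a type and less RNA per cell cannot be told apart. Of 6 myeloid markers 4 fell at 24 h, against 0.551% of all probe sets. The mean of the 6 at 24 h was 6.42 and 6.40 with doxycycline against 7.68 and 7.13 without it. At 12 h 0 of the 6 passed and 3 were above 0. Their mean at 12 h was 5.84 and 5.59 with doxycycline against 5.99 and 5.94 without it. Sema4d was lower with doxycycline at both times. The part of this list in the values of Sema4d was not tested. Of 7 erythroid markers 5 fell over both times, against 1.81% of all probe sets. The mean of the 7 at 24 h was 10.03 and 9.89 with doxycycline against 11.20 and 10.84 without it. Of 10 neural and neural crest markers 0 passed in limma for either time or both, and the list mean lay between 4.93 and 5.20 on all arrays.

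The difference between the effects at 24 h and at 12 h was tested directly. It passed for 0 of 59 genes in limma and for 0 of all probe sets (0%), with 2 of 59 and 505 of 16348 at an unadjusted p under 0.05. Those were Efna1, with an effect 1.25 ± 0.26 larger at 24 h (95% interval from 0.64 to 1.85), and Sema7a, with one 0.73 ± 0.28 larger (0.08 to 1.39). For Slit2 the effect at 24 h minus that at 12 h was -0.97 ± 0.50 (-2.12 to 0.19). The adjusted p was 1.00 for each of the 3.

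Between 24 h and 12 h with doxycycline 1 of 59 genes passed, against 0.184% of all probe sets, 0.159% higher and 0.0245% lower. That gene was Efna1, at 7.79 and 7.81 at 24 h against 6.51 and 6.23 at 12 h, a rise of 1.43 ± 0.18 (2.69-fold, adjusted p = 0.044), and this call was lost in each of the 8 fits with 1 array left out. With the replicate block Sema6b at 1.14 and Slit2 at -1.39 passed as well (adjusted p = 0.0121 and 0.039), which made 3 of 59, against 0.752% of all probe sets. Without doxycycline 0 of 59 passed in limma between 24 h and 12 h, against 0.147% of all probe sets (0.141% higher and 0.00612% lower). An unadjusted p under 0.05 in limma was seen for 4 of 59 genes and for 1220 of all 16348 probe sets. Of the 4 genes, Unc5c read 6.55 and 6.79 at 24 h against 8.17 and 7.68 at 12 h, a difference of -1.25 ± 0.27 (adjusted p = 0.206). Sema4d was the opposite case, at 8.14 and 8.42 against 7.43 and 7.51 (0.81 ± 0.16, adjusted p = 0.15), and with the replicate block it passed (adjusted p = 0.0446), as 1 of 59 against 0.795% of all probe sets.

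The replicate number was tested as well. With replicate 2 minus replicate 1 compared within the groups, 3 of 59 passed (5.08%, 2 higher and 1 lower), against 1.57% of all probe sets (0.856% higher and 0.71% lower), and 0 of the 3 passed for doxycycline without the block. Sema5a, a transmembrane semaphorin with thrombospondin repeats, read 5.61 to 6.13 on the 4 arrays of replicate 2 against 4.66 to 4.97 on the 4 of replicate 1 (1.08 ± 0.13, adjusted p = 0.018). Efna5, an ephrin-A, read 6.06 to 6.86 against 4.99 to 5.70 (1.01 ± 0.12, adjusted p = 0.018). Plxnc1 read 7.12 to 8.93 against 8.83 to 9.53 (-1.10 ± 0.18, adjusted p = 0.0406).

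Cell type markers differed by number too. Of 11 mesenchymal and smooth muscle markers 8 were higher in replicate 2 and 0 lower, against 0.856% and 0.71% of all probe sets. The mean of these 11 was 7.44 to 7.62 on the arrays of replicate 2 against 6.35 to 6.60 on those of replicate 1. Their part in the values of Sema5a and Efna5 was not tested. Of these 11 markers 0 passed for doxycycline in limma at either time or over both, and their median difference over both times was -0.13. The 12 endothelial markers were all lower in replicate 2, with differences from -1.95 to -0.455, and 2 of them passed. Those of the 5 megakaryocyte markers ran from -1.65 to -0.68, and 2 passed. The part of these 2 lists in the values of Ephb4, Plxnd1 and Plxnc1 was not tested. The groups of the genes that passed for doxycycline did not overlap at either time, so their differences within each replicate number had to keep their sign. These differences lay between 2.37 and 3.25 for Sema7a, between 1.65 and 2.38 for Efnb2, between 1.13 and 1.68 for Ephb4 and between -1.15 and -0.78 for Sema4d.

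**Figure D4:**
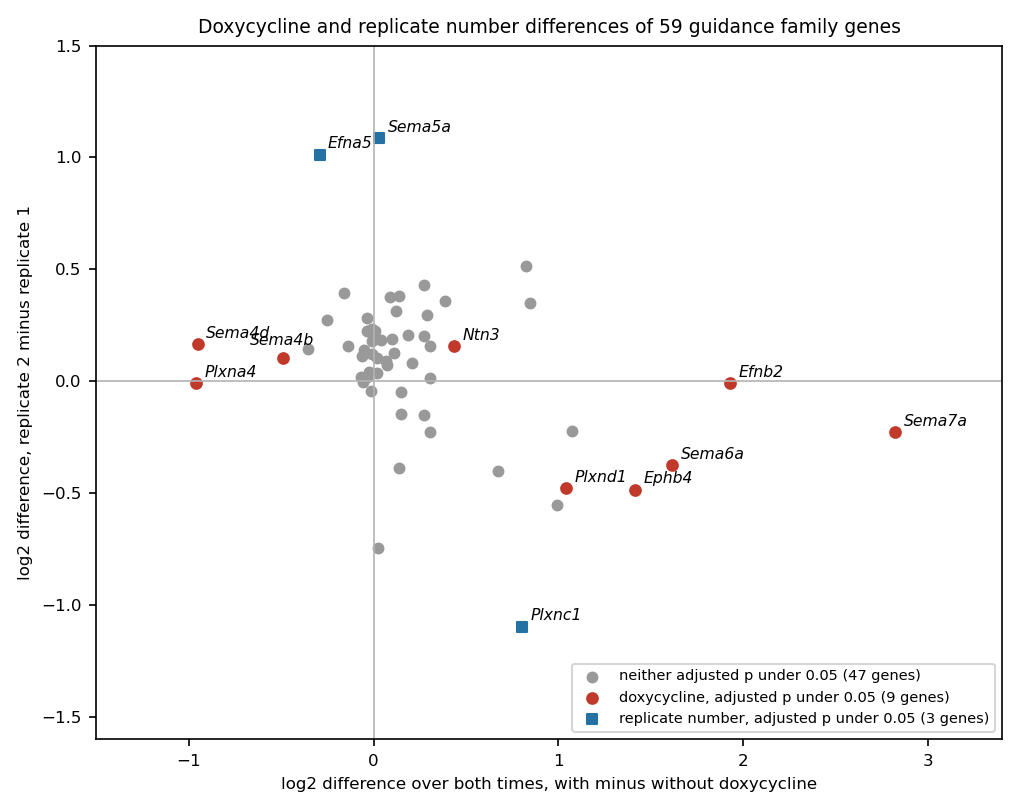
For each of 59 genes, the log2 difference with minus without doxycycline over both times (horizontal) and that of replicate 2 minus replicate 1 (vertical), with the 9 genes that passed for doxycycline in red and the 3 that passed for the number as blue squares. The red genes spread along the horizontal axis, with Ephb4 and Plxnd1 at -0.49 and -0.48 on the vertical one, and Sema5a, Efna5 and Plxnc1 lie more than 1 unit from 0 on the vertical one.

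Co-receptors, adaptors and cytoplasmic effectors outside the families were taken as a list of 64 genes, of which 55 were measured. At 12 h and at 24 h 1 of 55 rose, against 0.593% and 0.887% of all probe sets. This was Dpysl3, a collapsin response mediator protein that acts downstream of semaphorins in neurons. It read 11.12 and 11.51 with doxycycline against 8.92 and 8.31 without it at 12 h, and 9.84 and 9.81 against 7.83 and 7.07 at 24 h. These rises were 2.70 ± 0.30 and 2.38 ± 0.30 (adjusted p = 0.0143 and 0.0165). Over both times 5 of 55 rose and 1 fell, against 2.61% and 1.81% of all probe sets. Beside Dpysl3 these were the related Dpysl2 by 0.71 ± 0.12, Flrt3, a ligand of Unc5 receptors, by 1.22 ± 0.23, the VEGF receptor gene Kdr by 1.38 ± 0.29 and Arhgef12, which B plexins bind, by 0.48 ± 0.09 (adjusted p = 0.013, 0.0225, 0.0377 and 0.0192). The gene that fell was Nck2, an adaptor bound by ephrin-B tails, at -0.58 ± 0.10 (adjusted p = 0.0159). The median of the list was 0.12 over both times, against 0.09 for the 59 guidance genes and -0.01 for all probe sets.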

How the data were processed

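Expression of 8 samples was read from 1 table that the authors deposited, whose 8 columns of log2 expression cover 16348 probe sets. RMA, run in Affymetrix Power Tools per the submitters' processing notes, subtracts background, brings arrays to a common distribution and combines the probes of a set. The sources used here give no versions, further filters or genome build. No detection calls were used, so no background level is known and levels of different probe sets are not compared. Arrays have no depth, and their number limits the precision. Array medians ran from 6.40 to 6.61.

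Groups and replicate numbers came from the titles, with 0 columns unmapped. Of the probe sets 14785 had 1 gene symbol in the platform annotation, 950 several and 613 none, and of several probe sets of 1 gene the one with the highest mean was taken. The model, fitted by lmFit and eBayes of limma 3.58.1 under R 4.3.3, gave every group its own mean (4 residual degrees of freedom, prior 3.44). The comparison over both times used terms for doxycycline and time, and that of replicate numbers used group and number. Benjamini-Hochberg adjustment of the p-values ran over all probe sets. The code was tested on 10 simulated data sets.

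Genes described with the value on every array were those that passed at 12 h, at 24 h or over both times, and those with groups apart by at least 0.8 log2 units at a time. The families, the lists and the rule were chosen with earlier results of these data known. Each difference within a time rests on 2 samples per group. No fit for doxycycline or time reported as the result holds a replicate term. Same-numbered arrays deviated together, so values with the number as a block are given beside a result where they change its call. A single time holds 2 such pairs, and both times hold 4. Other alternatives were a repeated quantile normalization, array median centring, eBayes with an intensity trend, robust eBayes, array weights, a table limited to 1 probe set per gene, one lacking the dimmest 33.3% of probe sets, fits restricted to the 2 groups of a comparison, and fits that omit 1 array.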

Additional observations from a re-analysis of the deposited data

How the results depend on the processing

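The number of guidance genes called kept within 1.5 times under a repeated quantile normalization, array median centring, a robust eBayes and 1 probe set per gene in each of the 7 comparisons. At 12 h, where 3 passed, 5 passed without the dimmest 33.3% of probe sets, 7 with array weights, 6 with the replicate block and 0 with only the groups compared. At 24 h, where 4 passed, 2 passed with array weights and 11 with the replicate block. Over both times, where 9 passed, 14 passed with the replicate block. From 12 h to 24 h with doxycycline, where 1 passed, 3 passed with the replicate block and 0 with only the groups compared, and without doxycycline, where 0 passed, 1 passed with the block. Between replicate numbers, where 3 passed, 5 passed with a trend, 10 without the dimmest 33.3% and 7 with array weights. Of these alternatives, shares over all probe sets are given above for the replicate block only. The other counts of this paragraph are therefore not read as particular to the guidance genes. With 1 array left out, which leaves a lone sample assumed to vary like the others and fewer degrees of freedom, 0 to 4 passed at 12 h, 1 to 5 at 24 h, 6 to 9 over both times, 0 to 0 between times with or without doxycycline, 0 to 0 for the difference of effects and 0 to 3 between replicate numbers. For Plxnc1 the 12 h difference lay between -0.25 and 0.95 over these fits and turned to -0.09 without the first array with doxycycline at 12 h and to -0.25 without the second array lacking it at 12 h. The cause of these shifts was not tested. Such a fit sets a sample of 1 replicate number against samples of both numbers. Within replicate 1 and replicate 2 the 12 h difference of Plxnc1 was 0.19 and 0.51. The median over all probe sets stayed between -0.10 and 0.07 in all of these fits. With 2 samples a group and no background level, small differences in dim genes were not detectable here.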

Other observations

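The gap between replicate numbers was larger than the doxycycline difference over both times in 31 of the 59 guidance genes. The same count was not made over all probe sets, so it cannot be read as particular to these genes. Sema3a, a secreted repellent of axons, read 4.14 to 4.64 on the arrays of replicate 2 against 4.62 to 5.51 on those of replicate 1, a difference of -0.75 ± 0.16 that did not pass (adjusted p = 0.0785). Plxnb1, Efnb3 and Sema6b had differences between the numbers of 0.38 ± 0.08, 0.38 ± 0.08 and -0.40 ± 0.08 that did not pass either (adjusted p = 0.0818, 0.0836 and 0.0733). Ephb4, which passed for doxycycline over both times, had one of -0.485 ± 0.10 that did not pass (adjusted p = 0.0784).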
